A study of Arabidopsis thaliana with 8 samples.

Results

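The expression of 5 nuclear genes for organelle gene expression factors was followed in the tic40 mutant of Arabidopsis thaliana, in ecotype Columbia 0, and in wild type (WT) of the same ecotype. The genes are AT5G55580 and AT1G61990, which encode proteins of the mTERF family, OTP70 (AT4G25270), ATAB2 (AT3G08010) and OSB1 (AT1G47720). They were chosen as the probes annotated with exactly 1 gene, that gene being one of the 5, which gave 1 probe per gene, 5 of 692 such probes. Total RNA of 4 tic40 samples and 4 WT samples, numbered 1 to 4 in each genotype, was measured on 1 array each. TIC40 is a component of the translocon that carries imported proteins across the inner membrane of the chloroplast envelope, a step that is impaired in tic40. The labels give no allele, tissue, age or growth condition, nor whether separate plants were used, so the p-values cover the scatter among these 8 samples, perhaps technical, and nothing wider. No single-gene probe measures TIC40, so the mutation was not checked on the arrays.

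Plastids and mitochondria keep small genomes whose expression is run almost entirely by proteins encoded in the nucleus, made in the cytosol and imported. mTERF proteins, built of helical repeats that bind nucleic acids, act in organelle transcription, splicing and ribosome assembly. Pentatricopeptide repeat (PPR) proteins bind single organelle transcripts and direct their splicing, editing or stability. Other factors activate the translation of particular plastid mRNAs or guard organelle DNA against recombination. Their transcripts tell nothing directly about how much protein reaches the organelle.

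The table holds 3439 probes, of which 3318 were above 0 on at least 1 array and were tested. The WT arrays fell into pairs. Across probes the log2 signals correlated at 0.947 between WT samples 1 and 2 and at 0.946 between WT samples 3 and 4, but at 0.707 to 0.722 between these pairs, while the 4 tic40 arrays correlated at 0.934 to 0.975. The tic40 arrays correlated at 0.874 to 0.907 with WT samples 1 and 2 and at 0.739 to 0.800 with WT samples 3 and 4. WT samples 1 and 2 were thus closer to tic40 than to WT samples 3 and 4. The 5 genes are therefore given on all 8 arrays and for samples 1 and 2 and samples 3 and 4 apart. The labels name no batch, day or growth difference behind these pairs. Of 40 genes listed as markers of green tissue 7 were measured, none at 0 on any array, and their summed normalised intensity was 36.4 to 36.7 in tic40 samples 1 and 2, 33.4 to 35.8 in tic40 samples 3 and 4, 37.4 to 38.8 in WT samples 1 and 2 and 34.7 to 35.7 in WT samples 3 and 4. PSBW, a photosystem II subunit, was the largest part of that sum, with a mean of 24.0 in tic40 and 17.0 in WT. It was higher in tic40 (0.48 in samples 1 and 2 and 0.52 in the other pair, on the log2 scale), so the sum does not show the single markers. Of the 7 markers, limma (adjusted p under 0.05) called 4 lower and 1 higher in tic40 in samples 1 and 2, where 36.9% of all probes were called. It called 3 lower and 1 higher in samples 3 and 4, where 57.6% of all probes were called. On all 8 arrays it called 0 lower and 1 higher, against 7.69% of all probes. In samples 1 and 2 the light-harvesting gene LHB1B2 averaged 2.54 in tic40 and 10.6 in WT (log2 difference -2.06, limma adjusted p = 0.000438), and PRK, a Calvin cycle enzyme, was at -1.58 (adjusted p = 0.00321). The part of these marker differences in the results below was not tested. Of 12 root markers 0 were measured. In RNA of whole samples, fewer cells of a type and less RNA per cell cannot be told apart.

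Signals are given as normalised intensities, on a linear scale after quantile normalization between arrays. A difference is tic40 minus WT on the log2 scale, fitted with limma, and a call is an adjusted p under 0.05 after Benjamini-Hochberg adjustment over all probes tested. All 5 probes were above 0 on every array. The lowest signal of ATAB2 was 3.15 times the lowest positive signals of its array (percentile 1), so ATAB2 was the member measured closest to background, whereas the lowest of the other 4 genes was 8.09 times that level or higher.

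On all 8 arrays, AT1G61990 was the only one of the 5 genes that passed the test, higher in tic40, and 4 did not pass. Over all probes 7.69% were called in either direction, 2.32% were called higher and 5.36% lower. The 5 differences were positive, from 0.17 to 0.88 with a median of 0.35, against a median of -0.06 over all probes tested. For 2 of the 5 genes, AT1G61990 and OSB1, the 4 tic40 values all lay above the 4 WT values, and 21% of all probes showed no overlap in one direction or the other. The same-numbered samples of both genotypes deviated together, and when a replicate block for that number was fitted 5 of all 3318 probes and 0 of the 5 genes were called.

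**Figure D1:**
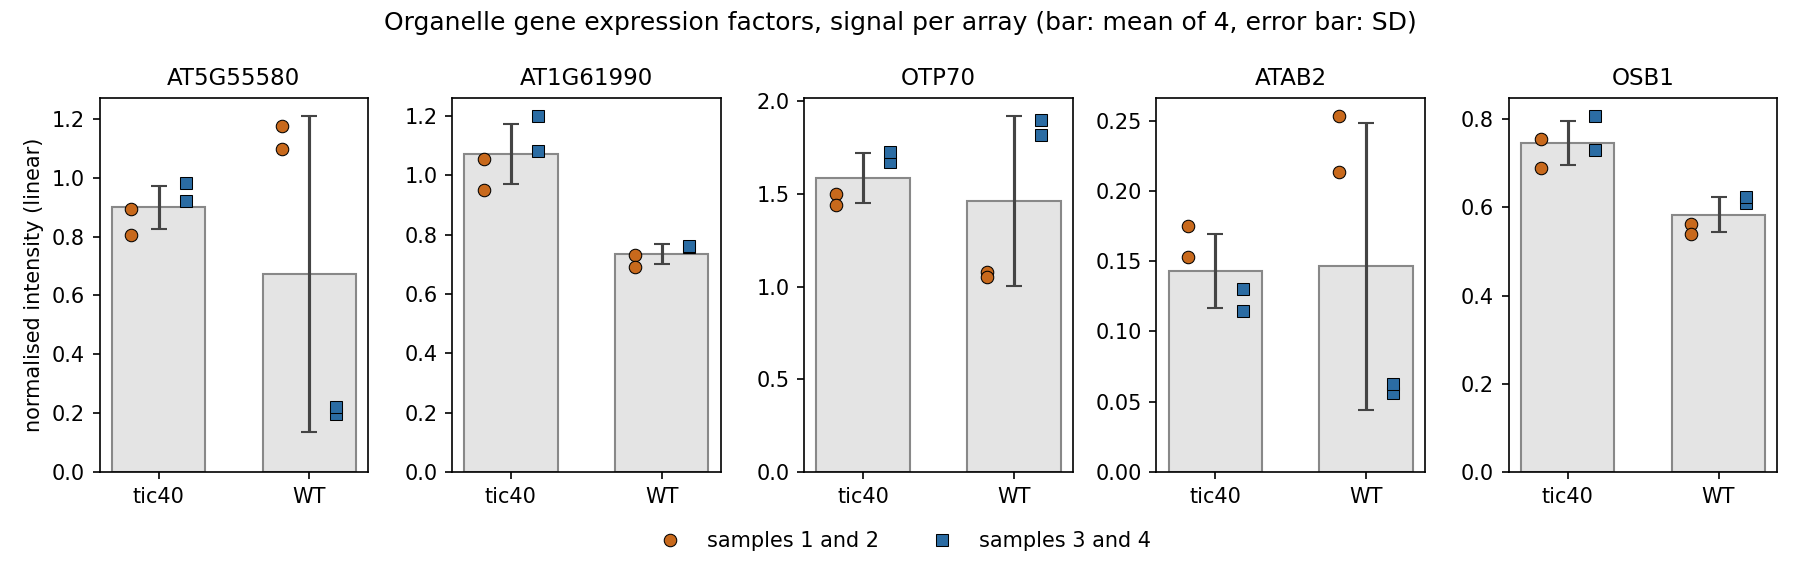
Normalised intensity (linear scale) of each gene's probe on the 8 arrays, tic40 left of WT. Bars and error bars are the mean and SD of 4 arrays, circles samples 1 and 2, squares samples 3 and 4. AT1G61990 and OSB1 lie higher in all 4 tic40 samples, while the WT values of AT5G55580, ATAB2 and OTP70 split into pairs on either side of, or far from, the tic40 values.

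AT1G61990 encodes an mTERF protein and lies between AT1G61980 and AT1G62000 in the TAIR10.1 gene table. Its normalised intensity was 1.06, 0.952, 1.08 and 1.20 in tic40 samples 1 to 4, against 0.731, 0.690, 0.759 and 0.761 in WT samples 1 to 4. Every tic40 sample lay above every WT sample, and the WT samples 1 and 2 and WT samples 3 and 4 lay close together. The mean was 1.07 ± 0.102 in tic40 and 0.735 ± 0.0331 in WT (SD, n = 4 each), a 1.46-fold rise with a 95% interval of 1.18 to 1.79 (log2 difference 0.54, SE 0.13, limma adjusted p = 0.0446). The call was near the threshold. It was lost with the replicate block (limma adjusted p = 0.0867), with the table as deposited (0.82, adjusted p = 0.0632), with arrays centred on their median (0.47, adjusted p = 0.0859) and without any single one of the 8 samples (adjusted p of 0.0680 to 0.130).

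With the sample pairs apart, AT1G61990 rose in both. In samples 1 and 2 the mean was 1.004 ± 0.0735 in tic40 and 0.710 ± 0.0286 in WT (SD, n = 2 each; log2 difference 0.50, limma adjusted p = 0.0112). In samples 3 and 4 it was 1.14 ± 0.0841 in tic40 and 0.760 ± 0.00128 in WT (log2 difference 0.58, limma adjusted p = 0.00346). The difference between these differences was 0.09, with a 95% interval of -0.24 to 0.42 (limma adjusted p = 0.612). With the table as deposited that value was -0.62 (adjusted p = 0.00862). The median of all probes moved to -0.74 there, and relative to it AT1G61990 stood at 0.11.

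AT5G55580, annotated as mTERF9, encodes an mTERF protein of plastids that is needed for normal chloroplast development. Its normalised intensity was 0.893, 0.806, 0.921 and 0.982 in tic40 samples 1 to 4, against 1.18, 1.099, 0.197 and 0.221 in WT samples 1 to 4. The tic40 values were alike, the WT samples 1 and 2 lay above all of them and the WT samples 3 and 4 far below. The means, 0.900 ± 0.0730 in tic40 and 0.673 ± 0.537 in WT (SD, n = 4 each), therefore describe no WT sample, and the log2 difference of 0.88 had an SE of 0.62 and a 95% interval of -0.55 to 2.32 (limma adjusted p = 0.412).

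AT5G55580 was 4.56-fold higher in tic40 in samples 3 and 4, with a 95% interval of 3.83 to 5.43, the largest of the 5 differences there (log2 difference 2.19, limma adjusted p = 7.02e-05). In samples 1 and 2 it was lower in tic40, by 0.42 on the log2 scale (limma adjusted p = 0.0239). The interaction, the difference in samples 3 and 4 minus that in samples 1 and 2, was 2.61 with an SE of 0.14 (limma adjusted p = 0.000244). The larger change was in WT, where samples 3 and 4 were lower than samples 1 and 2 by a log2 difference of -2.45 (limma adjusted p = 3.48e-05), while the tic40 pairs differed by 0.16 (adjusted p = 0.325).

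The sign in samples 1 and 2 rested on the scaling. As deposited, the intensities of AT5G55580 there were 0.973 and 0.890 in tic40, against 0.887 and 0.818 in WT, a log2 difference of 0.13 (limma adjusted p = 0.297). On those arrays the median of all probes lay 0.70 higher in tic40 as deposited, and relative to that median AT5G55580 was at -0.57. In samples 3 and 4 the difference was 2.33 as deposited and 2.34 with median centring, so the scaling hardly moved it. A probe annotated with AT5G55580 and AT1G78930 together, from which no gene is read, was lower in tic40 there (-1.26, limma adjusted p = 0.00237).

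OTP70 encodes a PPR protein required for splicing of the plastid rpoC1 transcript, which encodes a subunit of the plastid RNA polymerase. Its normalised intensity was 1.502, 1.44, 1.67 and 1.73 in tic40 samples 1 to 4, against 1.08, 1.05, 1.90 and 1.82 in WT samples 1 to 4. Here WT samples 1 and 2 were the low pair and WT samples 3 and 4 the high pair, the reverse of AT5G55580. The mean was 1.59 ± 0.136 in tic40 and 1.46 ± 0.459 in WT (SD, n = 4 each; log2 difference 0.17, SE 0.23, limma adjusted p = 0.689).

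OTP70 was 1.38-fold higher in tic40 in samples 1 and 2 (log2 difference 0.46, limma adjusted p = 0.00631), a value that passed under all 3 scalings at 0.25 to 0.95. In samples 3 and 4 the difference was -0.13 with a 95% interval of -0.31 to 0.05 (limma adjusted p = 0.177), and it passed at -0.25 both as deposited (adjusted p = 0.0286) and with median centring (adjusted p = 0.0318). The interaction was -0.59, SE 0.10 (limma adjusted p = 0.00573). Between the pairs, OTP70 differed by 0.80 in WT (samples 3 and 4 minus samples 1 and 2, limma adjusted p = 0.000325) and by 0.21 in tic40 (adjusted p = 0.114).

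ATAB2 encodes an RNA-binding protein that promotes translation of plastid mRNAs for photosystem subunits. Its normalised intensity was 0.175, 0.153, 0.130 and 0.114 in tic40 samples 1 to 4, against 0.213, 0.253, 0.0559 and 0.0625 in WT samples 1 to 4. As for AT5G55580, the WT samples 1 and 2 were highest, the WT samples 3 and 4 lowest and the tic40 samples lay between them. The means were 0.143 ± 0.0265 in tic40 and 0.146 ± 0.102 in WT (SD, n = 4 each; log2 difference 0.27, SE 0.52, limma adjusted p = 0.779). The sign of that difference rested on single WT samples, since it was -0.08 without WT sample 3 and -0.02 without WT sample 4.

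ATAB2 was 2.06-fold higher in tic40 in samples 3 and 4, with a 95% interval of 1.63 to 2.61 (log2 difference 1.05, limma adjusted p = 0.00158). In samples 1 and 2 it was lower in tic40 by a log2 difference of -0.51 (limma adjusted p = 0.0334). That fall was lost with the replicate block (adjusted p = 0.0841) and with median centring (-0.20, adjusted p = 0.260), and as deposited the value was 0.50 in the other direction (adjusted p = 0.0139), or -0.20 relative to the median of all probes. The interaction was 1.55, SE 0.19 (limma adjusted p = 0.00189), and 0.84 as deposited (adjusted p = 0.00810). The WT pairs differed by -1.98 (samples 3 and 4 minus samples 1 and 2, limma adjusted p = 0.000130), the tic40 pairs by -0.42 (adjusted p = 0.0977). The percentile 1 level was 0.0583 and 0.0665 on WT arrays 1 and 2, and 0.0177 and 0.0147 on WT arrays 3 and 4. As multiples of that level ATAB2 was at 3.66, 3.81, 3.15 and 4.24 in WT samples 1 to 4, and so did not split. For ATAB2 the tic40 samples 1 to 4 were at 6.67, 4.90, 5.97 and 4.90. This measure also changed other members. AT5G55580 was at 20.2, 16.5, 11.1 and 15.0 in WT samples 1 to 4, a far smaller split. AT1G61990 (12.5, 10.4, 42.8 and 51.7) and OSB1 (9.65, 8.09, 34.4 and 42.3) split there, unlike in their normalised intensities. The change in the split was thus not particular to ATAB2. The part of background in these ATAB2 differences was not tested.

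OSB1 encodes a single-stranded DNA binding protein of mitochondria that restrains recombination of the mitochondrial genome. Its normalised intensity was 0.689, 0.755, 0.807 and 0.730 in tic40 samples 1 to 4, against 0.563, 0.538, 0.610 and 0.623 in WT samples 1 to 4. All tic40 values lay above all WT values, with a gap narrower than for AT1G61990. The mean was 0.745 ± 0.0495 in tic40 and 0.583 ± 0.0396 in WT (SD, n = 4 each), 1.28-fold with a 95% interval of 1.05 to 1.56 (log2 difference 0.35, SE 0.13), which did not pass over all probes (limma adjusted p = 0.132). An exact two-sided permutation test over the 8 samples gave p = 0.0286 for OSB1 and the same for AT1G61990, the smallest p that 4 against 4 samples allow. It is the p of any pair of groups that do not overlap, it takes the samples as exchangeable and ignores their pairing by number, and it is unadjusted for the choice of genes.

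In the pairs OSB1 was higher in tic40 both times, by 0.39 in samples 1 and 2 (limma adjusted p = 0.0211) and by 0.32 in samples 3 and 4 (limma adjusted p = 0.0269). With the replicate block neither passed (adjusted p = 0.0505 and 0.0562). The interaction was -0.07, with a 95% interval of -0.39 to 0.24 (limma adjusted p = 0.661). As deposited it was -0.81 (adjusted p = 0.00290), which is -0.07 relative to the median of all probes.

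Set side by side, the 5 genes showed either little or much spread in WT, and little in tic40. Between the tic40 pairs 0 of the 5 differed by limma's adjusted p (2 by an unadjusted p under 0.05), against 12.6% of all probes, and their log2 differences ranged from -0.42 to 0.21. Between the WT pairs 3 of the 5 differed, against 65.8% of all probes, so a called difference between these WT arrays was common. The median absolute difference over all probes was 0.68 on the log2 scale, set against -2.45 for AT5G55580, -1.98 for ATAB2 and 0.80 for OTP70. The count of genes called was 5 in samples 1 and 2, where 36.9% of all probes were called, 4 in samples 3 and 4, where 57.6% were, and 3 for the interaction, where 51.7% were. These fits measure the spread within pairs of arrays that may be technical.

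The order of the levels, highest first, differed between genes. For AT1G61990 and OSB1 it was tic40 samples 3 and 4, tic40 samples 1 and 2, WT samples 3 and 4, WT samples 1 and 2. Of the neighbours in that order, the tic40 and WT groups differed for AT1G61990 (limma adjusted p = 0.0126) but did not pass for OSB1 (adjusted p = 0.0717), and neighbours of the same genotype did not pass for either gene. For AT5G55580 it was WT samples 1 and 2, tic40 samples 3 and 4, tic40 samples 1 and 2 and WT samples 3 and 4, where only the last step passed (limma adjusted p = 5.97e-05). For ATAB2 the tic40 groups stood between the WT pairs and both outer steps passed, and for OTP70 only the step down to the lowest group, WT samples 1 and 2, passed.

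**Figure D2:**
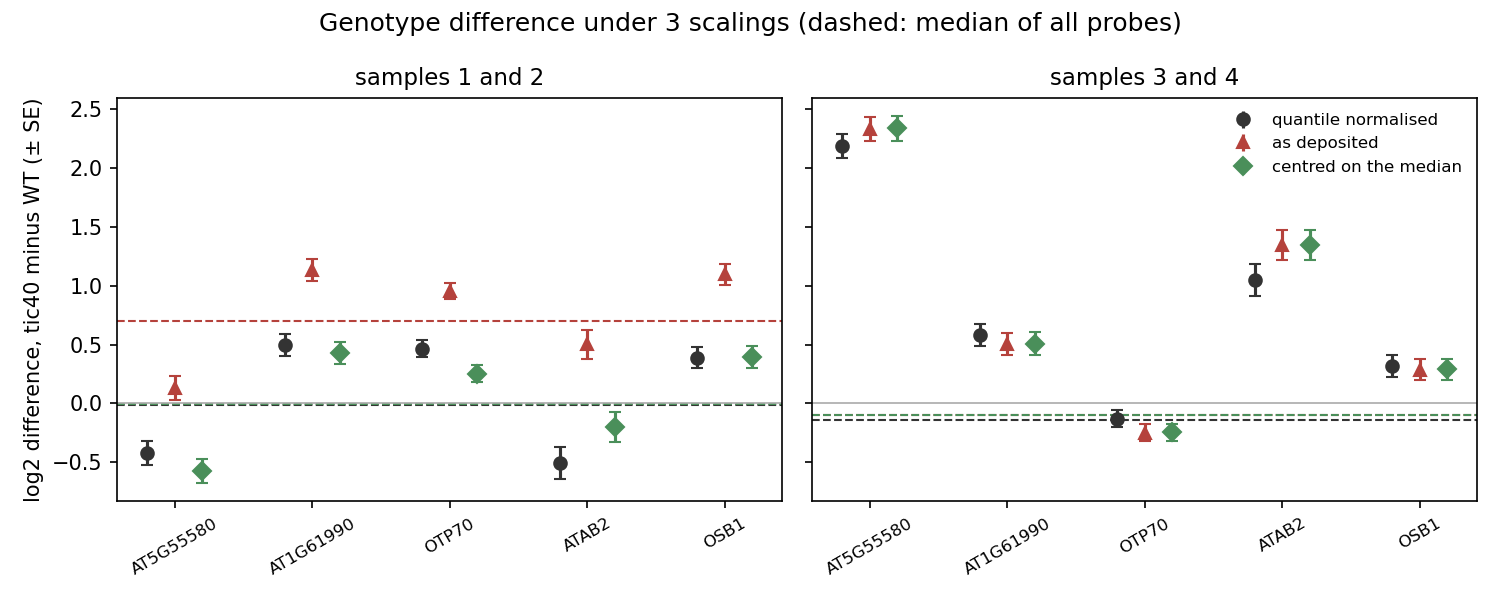
Log2 difference, tic40 minus WT, with its SE in samples 1 and 2 (left) and samples 3 and 4 (right), after quantile normalization (circles), as deposited (triangles) and with arrays centred on the median (diamonds). Dashed lines are the median of all probes, which is 0.70 as deposited in samples 1 and 2, where all 5 triangles lie above 0; AT5G55580 and ATAB2 lie below that line.

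The deposited scale matters most in samples 1 and 2. The median deposited intensity was 0.602 and 0.604 on tic40 arrays 1 and 2, against 0.361 and 0.354 on WT arrays 1 and 2. It was 0.568 and 0.575 on tic40 arrays 3 and 4, against 0.559 and 0.564 on WT arrays 3 and 4. Relative to the median of all probes, as deposited or centred alike, AT1G61990 stood at 0.43 in samples 1 and 2 against 0.61 in samples 3 and 4, and OSB1 at 0.40 and 0.39. ATAB2 stood at -0.20 and 1.44, OTP70 at 0.26 and -0.15, and AT5G55580 at -0.57 and 2.43 in the same order.

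**Figure D3:**
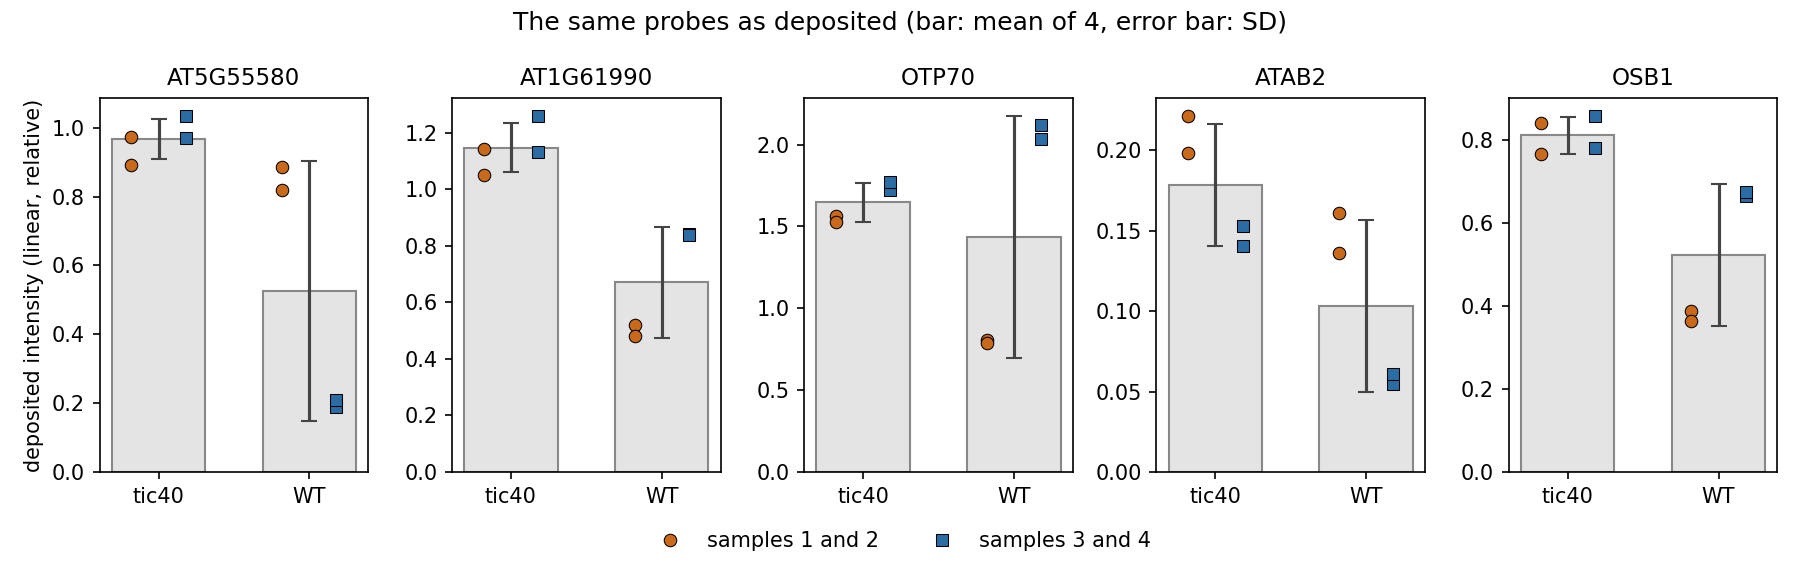
Deposited intensity (linear, relative scale) of the same probes, tic40 left of WT, with the mean and SD of 4 arrays. Circles are samples 1 and 2 and squares samples 3 and 4. Without normalization the WT samples 1 and 2 lie lower for every gene than after it, and the WT pairs of all 5 genes split, those of AT1G61990 and OSB1 included, with WT samples 3 and 4 at 0.842 and 0.840 for AT1G61990 against 0.519 and 0.483 in WT samples 1 and 2.

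The 5 genes were set beside other organelle gene expression factors from lists that name 219 members in all, of which single-gene probes measured 14, the 5 genes included. Of these 14, 1 rose in tic40 on all 8 arrays (AT1G61990), 1 fell and 12 did not pass, with a median log2 difference of 0.23. Over all probes 2.32% were called higher and 5.36% lower, with a median of -0.06, and with the replicate block 0 of the 14 were called. The 9 others had a median of 0.02. Of 35 listed mTERF genes 8 were measured, and the one that fell belongs to them.

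AT3G46950, also an mTERF gene, had normalised intensities of 0.446, 0.469, 0.535 and 0.508 in tic40 samples 1 to 4, against 0.695, 0.938, 0.999 and 1.05 in WT samples 1 to 4. All tic40 values lay below all WT values. The log2 difference was -0.90, SE 0.17 (limma adjusted p = 0.0223), -0.92 with median centring (adjusted p = 0.0281) and -0.57 as deposited (adjusted p = 0.253), and with the replicate block its adjusted p was 0.0612. Without 1 tic40 sample or without WT sample 3 or 4 the adjusted p was 0.0531 to 0.0730. It fell in samples 1 and 2 (-0.82, limma adjusted p = 0.00997) and in samples 3 and 4 (-0.98, adjusted p = 0.00288). As deposited the value in samples 1 and 2 was -0.12 (adjusted p = 0.521), or -0.82 relative to the median of all probes. AT1G61990 and AT3G46950 thus differed between the genotypes in opposite directions, both with sample pairs alike. The probe annotation lists another probe for both genes together, and cross-hybridisation of the single-gene probes was not tested.

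Among the other mTERF genes, AT3G18870 and AT4G09620 had a WT split like that of AT5G55580. AT4G09620 had normalised intensities of 11.5, 11.6, 10.2 and 7.97 in tic40 samples 1 to 4, against 9.15, 9.50, 1.06 and 1.45 in WT samples 1 to 4. Only WT samples 3 and 4 stood apart. Its log2 difference was 2.87 in samples 3 and 4 (limma adjusted p = 0.000169) and 0.31 in samples 1 and 2 (adjusted p = 0.239). The value in samples 1 and 2 was -0.94 with median centring (adjusted p = 0.0111) and -0.24 as deposited (adjusted p = 0.285). AT3G18870 had 1.44 in samples 3 and 4 (limma adjusted p = 0.000200) and 0.03 in samples 1 and 2 (adjusted p = 0.856, or -0.45 with median centring, adjusted p = 0.0186). On all 8 arrays neither passed (1.59, adjusted p = 0.235 for AT4G09620 and 0.73, adjusted p = 0.219 for AT3G18870).

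AT1G62150 went the other way, like OTP70, with 0.49 in samples 1 and 2 (limma adjusted p = 0.0665) and -0.64 in samples 3 and 4 (adjusted p = 0.0204). AT1G62010 and AT1G79220 stayed within 0.09 of no difference on all arrays and in both pairs, with adjusted p of 0.514 or more after quantile normalization. As deposited they were at 0.70 and 0.62 in samples 1 and 2, near the median of all probes there, and both were called (limma adjusted p = 0.00206 and 0.00239). Their interactions as deposited, -0.73 and -0.66, were called too (limma adjusted p = 0.00666 and 0.00681), with a median of -0.74 over all probes. On all 8 arrays 1 of the 8 measured mTERF genes was called higher, 1 was called lower and 6 did not pass, where 7.69% of all probes were called. Both calls were lost with the replicate block and as deposited.

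The PPR editing factors CRR21 and OTP85, both needed for editing of the plastid ndhD transcript, had log2 differences of 0.41 (limma adjusted p = 0.439) and 0.20 (adjusted p = 0.610) on all arrays. CRR21 was higher in tic40 in samples 3 and 4 (0.56, limma adjusted p = 0.00313) and did not pass in samples 1 and 2 (0.26, adjusted p = 0.0637). With median centring that value was -0.07 (adjusted p = 0.604) and as deposited 0.64 (adjusted p = 0.00206). PAC, a plastid protein whose loss gives pale leaves and faulty plastid RNA maturation, had -0.17 (adjusted p = 0.785) and passed in neither pair.

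**Figure D4:**
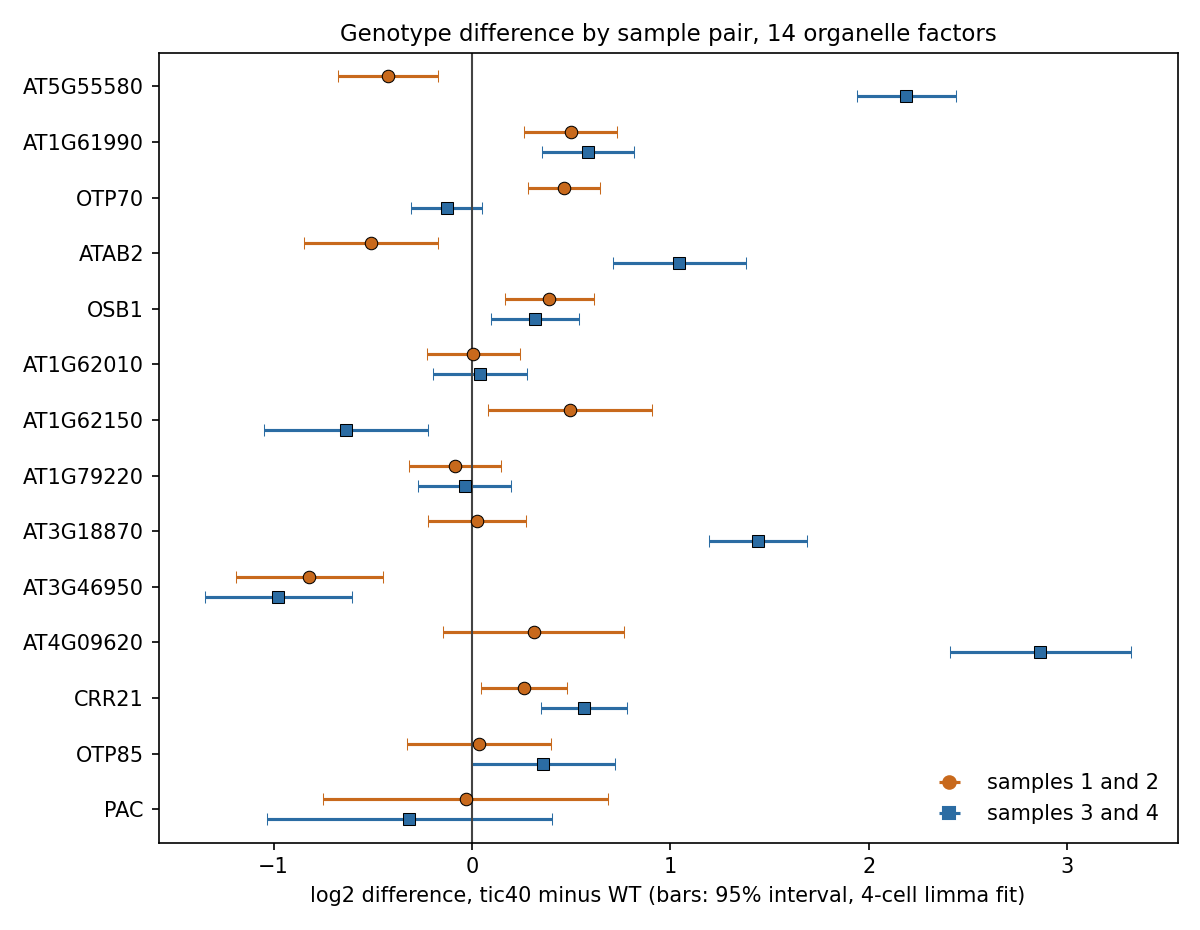
Log2 difference, tic40 minus WT, of the 14 measured organelle factors in samples 1 and 2 (circles) and samples 3 and 4 (squares), with 95% intervals from the limma fit of 4 groups of 2 arrays. AT1G61990 and OSB1 lie above 0 and AT3G46950 below 0 in both pairs, while AT5G55580, ATAB2, AT3G18870 and AT4G09620 lie far to the right in samples 3 and 4 only.

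Across the 8 arrays the log2 signals of the 5 genes fell into these patterns. AT1G61990 correlated with OSB1 at 0.886, AT5G55580 with ATAB2 at 0.916 and OTP70 with ATAB2 at -0.886. These values describe 8 arrays that share genotype and pair structure. Among the 607 other single-gene probes above 0 on all arrays, the signals most like AT1G61990 were those of AT3G44610 (0.927), AT4G27250 (0.904) and AT2G47680 (0.893), and those most like OSB1 were AT1G22850 (0.925), AT3G44610 (0.911) and AT4G17260 (0.897). For AT5G55580 they were FZL (0.994), CML41 (0.993) and AT1G63610 (0.993), for ATAB2 AT3G20920 (0.992), AT1G49850 (0.975) and AT5G44000 (0.974), and for OTP70 AT2G21960 (0.988), AT1G13990 (0.982) and AT2G37880 (0.979).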

How the data were processed

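The deposited table holds 1 intensity per probe and array, on a linear relative scale, per the values of the authors' table. For scanner, background correction and scaling the entry is: not given in the sources used here. Arrays have no sequencing depth, and their number limits the precision. Column medians over positive values spanned 0.72 on the log2 scale, so arrays were quantile normalised. Exact zeros (174 to 277 per array, none at the probes described) were then set to percentile 1 of the array's positive values, and log2 was taken. These counts include 121 probes at 0 everywhere, which were dropped.

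limma 3.58.1 in R 4.3.3 (lmFit, eBayes) fitted genotype alone, and a model of 4 groups (genotype by sample pair) for the pairs and the interaction, each over 3318 probes with Benjamini-Hochberg adjustment. The procedure was tested on simulated data. The simulated arrays had independent noise, with no WT pair split and no pairing by number, so that test does not cover these features. Same-numbered tic40 and WT samples deviated together (correlations of 0.306, 0.310, 0.261 and 0.254 for numbers 1 to 4), so the number was taken as a pairing shown by the data, and a fit with it as a block was made.

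Gene names came from the platform annotation, in which 692 probes have 1 gene, 870 several and 1877 none. Of the 692, 690 matched the TAIR10.1 gene table, used for names only because the probes' build is not given. Of 219 listed organelle factors 175 genes were found in that table. The members, lists and the rule for named genes (the 5 genes, any measured list gene and the 3 most correlated genes of each) were chosen with earlier results of these data known. A keyword search of gene descriptions, also in that rule, was not run, because the gene table used holds none. Alternatives were other scalings, floors, filters, an intensity trend, blocks, averaged pairs and leaving out each sample.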

Additional observations from a re-analysis of the deposited data

Results flagged for a closer look

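For 6 of the 14 organelle factors the genotype difference itself differed between the sample pairs by the limma interaction, the difference in samples 3 and 4 minus that in samples 1 and 2. Over all probes 51.7% did so. The log2 values were 2.61 for AT5G55580, 1.55 for ATAB2, -0.59 for OTP70, 2.55 for AT4G09620, 1.42 for AT3G18870 and -1.13 for AT1G62150, with adjusted p of 0.000244 to 0.0109. In each of the 6 the WT pairs differed (log2 differences from -2.92 to 1.01, limma adjusted p of 0.00299 or less) and the tic40 pairs did not pass. Over all probes 65.8% were called between the WT pairs and 12.6% between the tic40 pairs. The interaction is also the tic40 pair difference minus the WT pair difference. A pair difference in genes chosen by it is therefore partly built in.

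For AT1G62150, tic40 sample 2 stood apart from the other tic40 samples, at 0.899 against 0.779, 0.778 and 0.763. On the log2 scale its gap to the next value took 0.874 of the range of the 4 values. The limit for listing such a gap is one that chance passes in about 1 of 20 groups.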

How the results depend on the processing

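The number of arrays limits the precision, ATAB2 lay closest to background, and the p-values of the pairs rest on the spread within 2 arrays. With the table as deposited AT1G61990 had 0.82 (limma adjusted p = 0.0632) and 0 organelle factors were called on all 8 arrays. In samples 1 and 2 AT5G55580 was at 0.13 and ATAB2 at 0.50, both with the sign turned, and 2345 probes were called (2140 higher, 205 lower) against 1226 (581 higher, 645 lower). In samples 3 and 4 OTP70 passed at -0.25. The interaction was -0.62 for AT1G61990, with the sign turned, and -0.81 for OSB1, which passed. For the interaction 11 of the 14 organelle factors were called, where 2146 of all 3318 probes were. That table also turned the split of calls on all 8 arrays to 311 higher and 46 lower, against 77 and 178. With median centring AT1G61990 was at 0.47 on all 8 arrays, where 1 organelle factor and 237 of all 3318 probes were called. ATAB2 was then at -0.20 in samples 1 and 2, and OTP70 passed at -0.25 in samples 3 and 4. With an intensity trend ATAB2 in samples 1 and 2 did not pass (-0.51, adjusted p = 0.0918).

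With the replicate block AT1G61990 (0.54), ATAB2 in samples 1 and 2 (-0.51) and OSB1 in samples 1 and 2 (0.39) and in samples 3 and 4 (0.32) no longer passed, and 5 probes and 0 organelle factors were called on all 8 arrays. Apart from AT3G46950, it changed no other call of a gene that was refitted. With the sample pairs as a block 571 probes were called. With each pair averaged AT1G61990 was at 0.54 (adjusted p = 0.885), and 0 probes by limma (184 by an unadjusted p under 0.05) and 0 organelle factors were called. Fitted as 2 against 2 arrays alone, samples 1 and 2 gave -0.42 for AT5G55580, -0.51 for ATAB2 and 0.39 for OSB1, none passing. In that fit 3 of the 14 organelle factors were called, where 1012 of all 3318 probes were. By the exact permutation test OSB1 (0.35) had p = 0.0286, unadjusted and the smallest possible. It is the p of any groups that do not overlap, which held for 21% of all probes.

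Leaving out 1 sample at a time gave 0.43 to 1.30 for AT5G55580, 0.03 to 0.31 for OTP70, 0.31 to 0.40 for OSB1, 0.49 to 0.60 for AT1G61990 and -0.079 to 0.59 for ATAB2 (-0.079 without WT sample 3, -0.02 without WT sample 4). It gave 40 to 242 probes called, 40 to 48 without 1 tic40 sample, 125 to 242 without 1 WT sample, and 0 to 1 organelle factors. In samples 1 and 2 the ranges were -0.50 to -0.35 for AT5G55580, 0.43 to 0.58 for AT1G61990, -0.62 to -0.38 for ATAB2 and 0.33 to 0.47 for OSB1, with 640 to 1276 probes and 1 to 6 organelle factors called. In samples 3 and 4 OSB1 had 0.25 to 0.39. A lone array was there taken to vary like the others.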

Other observations

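The annotation lists 2 further probes that name a member together with other genes, and no gene is read from them. Probe 1484, annotated with 4 genes, AT1G61990 and AT3G46950 among them, had normalised intensities of 0.611, 0.660, 0.889 and 0.800 in tic40 samples 1 to 4, against 0.357, 0.445, 1.09 and 0.877 in WT samples 1 to 4 (log2 difference 0.23, limma adjusted p = 0.730). It was higher in tic40 in samples 1 and 2 (0.67, limma adjusted p = 0.0221) and at -0.21 in samples 3 and 4 (adjusted p = 0.284). The WT pairs split at this probe, which they did not at the single-gene probe of AT1G61990. Probe 4364, annotated with 2 genes of which AT5G55580 is one, had 0.368, 0.342, 0.273 and 0.191 in tic40, against 0.421, 0.457, 0.585 and 0.511 in WT (log2 difference -0.78, limma adjusted p = 0.0820). In samples 3 and 4 it was lower in tic40 (-1.26, limma adjusted p = 0.00237), opposite to the single-gene probe of AT5G55580 (2.19), and in samples 1 and 2 it was at -0.31 (adjusted p = 0.242). Its tic40 values lay below all WT values, and WT samples 3 and 4 were not the low ones, unlike at the single-gene probe of AT5G55580.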
